A study of Mus musculus with 12 samples.

Results

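The report covers 10 genes of the smooth muscle and myofibroblast contractile programme, out of 55487 genes in the deposited expression table of mouse cochlear glial cultures. They were taken by name: Acta2, Actg2, Tagln, Cnn1, Tpm2, Lmod1, Myh11, Myl9, Des and Pdgfrb. RNA-seq had been made from 12 libraries, 3 for each of the groups SCDM, SCDM/FGF, FIBCL and spheres, from cochlea of mixed C57Bl6 and FVB/N mice labelled as postnatal day 4. Modiolus tissue of 6-8 mice of both sexes was pooled for a culture, so a library is not an animal.

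All groups began as spheres, floating clusters grown with 20 ng/ml EGF, 10 ng/ml bFGF, 50 ng/ml IGF and 50 ng/ml heparan sulfate, with B27 and N2 in every medium. For the other 3 groups the spheres were plated on poly-L-ornithine and laminin and kept for 14 days. SCDM was DMEM/F12 with 50 ng/ml BDNF and 50 ng/ml NT3, and SCDM/FGF differed from it by 100 ng/ml bFGF. FIBCL, the mixture with small molecules, was Neurobasal with bFGF (listed at both 50 and 100 ng/ml) and 1000 U/ml LIF. Its small molecules were 20 µM Forskolin, 20 µM ISX9, 1 µM I-BET and 10 µM CHIR99021. The paper describes induced neurons (iNs) from SCDM and SCDM/FGF as well as from FIBCL, and those in control medium as immature. FIBCL and SCDM differ in base medium, neurotrophins, bFGF, LIF and every small molecule. The parts of these components in a difference therefore cannot be told apart. The sphere comparisons likewise join a change of medium with plating and time.

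Contraction in smooth muscle and in myofibroblasts, the activated fibroblasts of wounds, depends on actin filaments pulled by myosin II. Most genes of the programme are switched on by serum response factor (SRF), which binds CArG boxes in their promoters together with myocardin or the myocardin-related factors MRTF-A and MRTF-B. Myofibroblasts typically express smooth muscle actin and transgelin with little of the smooth muscle myosin heavy chain, whereas differentiated smooth muscle has both. Pdgfrb encodes the receptor by which platelet-derived growth factor B acts on pericytes, smooth muscle cells and fibroblasts.

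Levels are given as deposited TPM, a length-corrected share of all transcripts, per library in the order of the replicate numbers. Means ± SD, differences and tests are on scaled TPM, in which each library was rescaled by a trimmed mean over genes expressed in all libraries. A difference is on the scale of log2(scaled TPM + 1), which understates the change of genes near or below 1 TPM. A gene was called when its adjusted p in limma, over all 16016 genes tested and with Benjamini-Hochberg correction, was under 0.05. Of the 10 genes, 9 were tested. Des never reached 1 TPM and was left out by the filter, and Myh11 passed it only through its 3 FIBCL libraries, so its calls in FIBCL partly follow from the filter.

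In SCDM the actins Acta2 and Actg2, transgelin and the light chain Myl9 were far above their levels in spheres. They were much lower in SCDM/FGF and lower again in FIBCL. In bulk libraries, fewer cells that express a gene and less RNA per cell cannot be told apart. Myh11 did not follow them and was highest in FIBCL, at about 2 TPM. Tpm2 was high in all groups, and Pdgfrb was high in all but FIBCL. The 10 genes together summed to 502-636 scaled TPM in SCDM, 177-221 in SCDM/FGF, 155-165 in spheres and 115-120 in FIBCL.

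**Figure D1:**
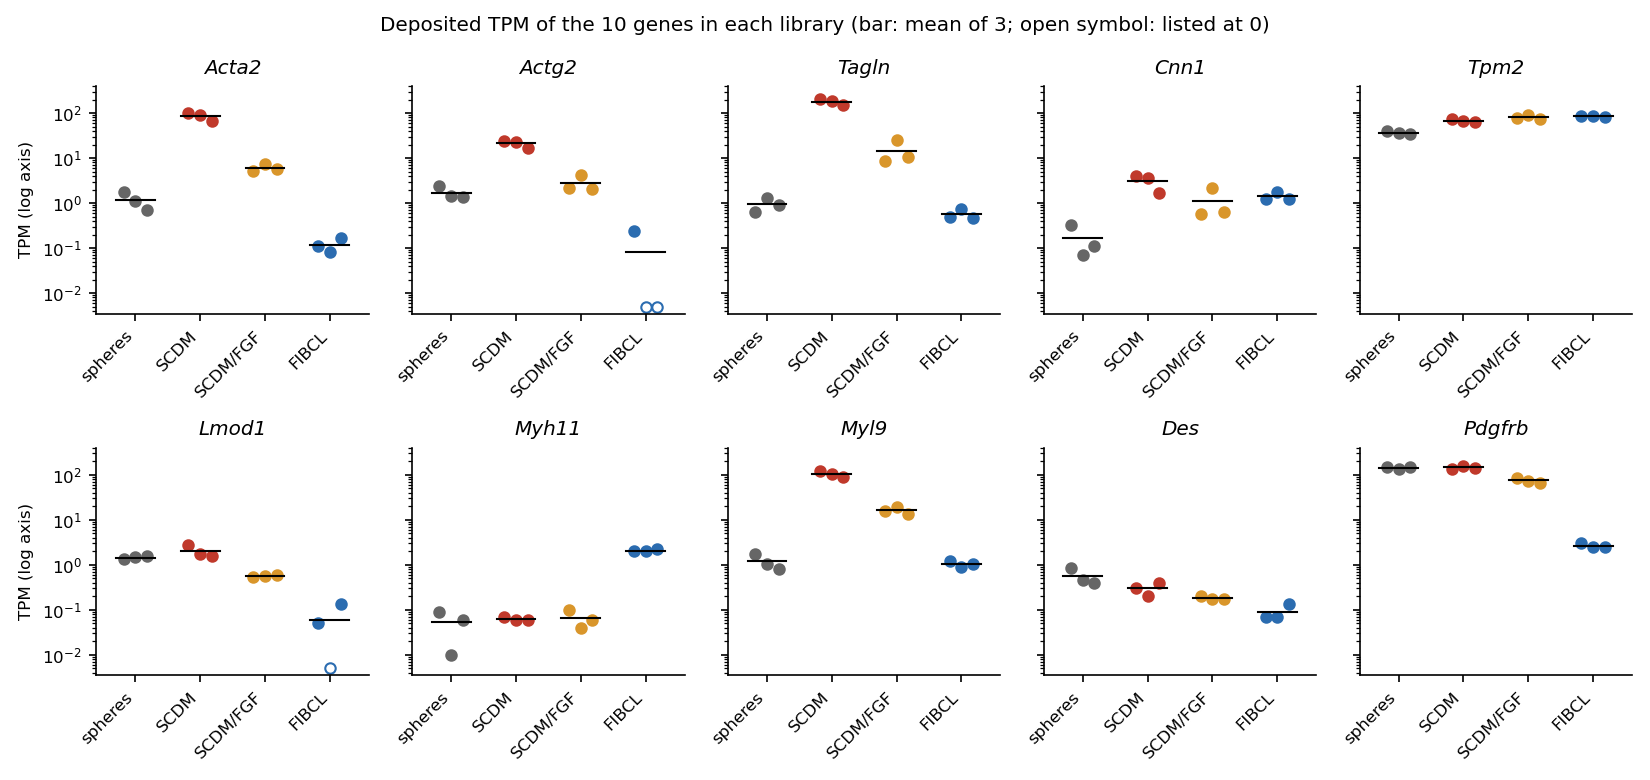
Deposited TPM (log axis) of each of the 10 genes in the 12 libraries, with 3 points per group, a bar at the mean and open symbols for libraries listed at 0. Acta2, Actg2, Tagln and Myl9 peak in SCDM, Myh11 is above 1 TPM in FIBCL alone (1.96-2.17 TPM), and Tpm2 lies between 34.5 and 88.8 TPM throughout.

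The promoters of Acta2 and Myl9, which rose and fell together, and of Tpm2, a gene of the same filament that did not follow them, are shown for comparison. Promoter entries in the RefSeq table (GRCm38.p6) were found for 6 of the 10 genes, namely Acta2, Cnn1, Myl9, Tpm2, Des and Lmod1. The 250 bases before the RefSeq transcript start are printed 5′ to 3′ on the gene's own strand. They lie at chr19:34255374-34255623 (minus strand) for Acta2, chr2:156775214-156775463 (plus) for Myl9 and chr4:43523555-43523804 (minus) for Tpm2. In GENCODE M21 these genes start further upstream, at 34255590, 156775420 and 43523765, inside the printed windows. Motif positions are counted from the RefSeq start. Capitals mark matches to the CArG box, to a CArG-like motif with 1 G or C in its A/T core, or to CATTCC, the motif of the TEAD factors.
Acta2: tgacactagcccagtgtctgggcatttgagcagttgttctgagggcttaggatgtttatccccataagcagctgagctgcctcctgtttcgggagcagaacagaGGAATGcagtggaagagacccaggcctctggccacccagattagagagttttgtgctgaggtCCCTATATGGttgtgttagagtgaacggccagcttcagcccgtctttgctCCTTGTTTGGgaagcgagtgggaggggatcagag
Myl9: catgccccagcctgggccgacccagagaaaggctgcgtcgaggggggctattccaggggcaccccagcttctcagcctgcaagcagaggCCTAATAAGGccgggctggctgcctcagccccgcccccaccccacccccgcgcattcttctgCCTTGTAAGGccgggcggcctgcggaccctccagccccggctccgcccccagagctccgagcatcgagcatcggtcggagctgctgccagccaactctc
Tpm2: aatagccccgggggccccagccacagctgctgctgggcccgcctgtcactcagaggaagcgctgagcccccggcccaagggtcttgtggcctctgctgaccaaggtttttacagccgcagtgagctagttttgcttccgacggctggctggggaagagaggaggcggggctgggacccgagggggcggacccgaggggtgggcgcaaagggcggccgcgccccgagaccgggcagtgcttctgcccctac
Both strands were searched over 300 bases, the 250 printed and the first 50 of the transcript, and no match overlapped another. Acta2 held a pair of CArG-like matches, CCCTATATGG at −84 to −75 and CCTTGTTTGG at −34 to −25, and, on the opposite strand, the TEAD motif at −146 to −141. Myl9 held a CArG box, CCTAATAAGG at −161 to −152, and the CArG-like CCTTGTAAGG at −99 to −90. Lmod1 held the TEAD motif, also on the opposite strand, at −130 to −125, and the windows of Cnn1, Tpm2 and Des held none of these motifs. Among 32851 mouse promoters of this length, 1.63% held a CArG box, 8.5% a CArG-like motif and 14.7% the TEAD motif.

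Acta2 encodes α-smooth muscle actin, the usual marker of myofibroblasts (chromosome 19, 34241090 to 34255590, minus strand, GRCm38 in GENCODE M21). Its level was 1.75, 1.11 and 0.72 TPM in spheres and 100.0, 91.0 and 68.2 TPM in SCDM. In SCDM/FGF it was 5.21, 7.23 and 5.80 TPM, and in FIBCL 0.11, 0.08 and 0.17 TPM. No library of any group overlapped those of another, in the order SCDM, SCDM/FGF, spheres, FIBCL. The mean was 81.6 ± 15.7 scaled TPM in SCDM against 1.02 ± 0.441 in spheres (SD, n = 3), a log2 difference of 5.36 (SE 0.183, adjusted p = 1.54e-09) that ranked 11 from the top of 16016 genes. With bFGF added to SCDM it fell by 3.53 on the log2 scale (SE 0.183, adjusted p = 3.68e-08), rank 38 from the bottom. FIBCL differed from SCDM by −6.15 (SE 0.183, adjusted p = 9.04e-11) and from spheres by −0.79 (adjusted p = 0.00229), although in the latter pair both groups were near or under 2 TPM.

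Actg2 encodes γ-smooth muscle actin, the actin of gut and other visceral muscle (chromosome 6, 83512905 to 83536265, minus strand). It stood at 2.34, 1.41 and 1.34 TPM in spheres, 23.6, 22.8 and 17.1 TPM in SCDM and 2.16, 4.14 and 2.08 TPM in SCDM/FGF. Only 1 FIBCL library had 0.24 TPM and the other two were listed at 0. SCDM stood apart from all other groups, while the sphere and SCDM/FGF libraries overlapped. The difference was 3.10 for SCDM against spheres (SE 0.22, adjusted p = 4.62e-07), −2.50 for SCDM/FGF against SCDM (adjusted p = 3.26e-06) and −4.26 for FIBCL against SCDM (adjusted p = 9.53e-09). The small excess of SCDM/FGF over spheres, 0.61 (adjusted p = 0.039), was lost without SCDM/FGF replicate 2 (0.37, adjusted p = 0.147) and without sphere replicate 2 or 3 (0.55, adjusted p = 0.105, and 0.51, adjusted p = 0.121), and in 10 of its 23 alternatives in all.

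Tagln encodes transgelin (SM22α), an actin-binding protein of smooth muscle and myofibroblasts (chromosome 9, 45929619 to 45936058, minus strand). Its values were 0.63, 1.32 and 0.91 TPM in spheres, 202, 183 and 149.8 TPM in SCDM, 8.64, 25.0 and 10.4 TPM in SCDM/FGF and 0.50, 0.74 and 0.46 TPM in FIBCL. SCDM and SCDM/FGF were each apart from all other groups, and spheres overlapped FIBCL. Of the 10 genes it had the highest mean in SCDM, 168 ± 25.5 scaled TPM, with a range that overlapped Pdgfrb's. It differed by 6.54 between SCDM and spheres (SE 0.306, adjusted p = 1.62e-08), the third largest increase among all genes tested, and by −3.56 and −6.63 in SCDM/FGF and FIBCL against SCDM (adjusted p = 2.62e-06 and 3.57e-09). Between FIBCL and spheres the difference was −0.08 (95% interval −0.76 to 0.59, adjusted p = 0.821). An antisense gene, Gm48529, overlaps Tagln over 3627 bases and stood at 6.40 ± 0.682 scaled TPM in SCDM and between 1.02 and 1.50 in the means of the other groups. The methods name an orientation setting of the aligner without saying whether the library kit kept strand, so whether reads of the pair were told apart is not known.

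Cnn1 encodes calponin 1, which binds actin and restrains the myosin ATPase in differentiated smooth muscle (chromosome 9, 22099216 to 22109630, plus strand). It was low throughout, with 0.32, 0.07 and 0.11 TPM in spheres, 3.95, 3.70 and 1.70 TPM in SCDM, 0.57, 2.17 and 0.63 TPM in SCDM/FGF and 1.21, 1.75 and 1.26 TPM in FIBCL. All 9 libraries after plating were above the 3 of spheres, and among themselves the plated groups overlapped. SCDM exceeded spheres by 1.74 (SE 0.286, adjusted p = 0.000366) and FIBCL exceeded spheres by 1.27 (adjusted p = 0.00196). FIBCL and SCDM differed by −0.48 (95% interval −1.11 to 0.15, adjusted p = 0.156). Without SCDM replicate 3, the lowest of its group, this became −0.75 (adjusted p = 0.0309). FIBCL and SCDM/FGF differed by 0.44 (adjusted p = 0.187), and by 0.77 (adjusted p = 0.0148) without SCDM/FGF replicate 2. SCDM/FGF differed from SCDM by −0.92 (adjusted p = 0.0225), a call lost in 4 of the 6 fits that left out an SCDM or SCDM/FGF library (adjusted p from 0.0766 to 0.0858).

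Tpm2 encodes β-tropomyosin, which lies along the actin filament of muscle and of some non-muscle cells (chromosome 4, 43514711 to 43523765, minus strand). Spheres had 39.5, 36.5 and 34.5 TPM, SCDM 75.8, 66.0 and 62.7 TPM, SCDM/FGF 78.9, 88.8 and 75.8 TPM and FIBCL 87.9, 85.8 and 83.5 TPM. Spheres were the lowest and overlapped no other group. The difference from spheres was 1.01 in SCDM (SE 0.083, adjusted p = 1.51e-06), 1.34 in SCDM/FGF (adjusted p = 1.59e-07) and 1.74 in FIBCL (adjusted p = 5.14e-09). Tpm2 was the only tested member besides Myh11 that was higher in FIBCL than in SCDM, by 0.73 (SE 0.083, adjusted p = 9.06e-06). Its excess of FIBCL over SCDM/FGF, 0.39 (adjusted p = 0.00121), rested on the rescaling. On deposited TPM the groups overlapped and the difference was 0.08 (adjusted p = 0.379).

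Lmod1 encodes leiomodin 1, which nucleates actin filaments in smooth muscle (chromosome 1, 135324807 to 135368065, plus strand). Its values were 1.34, 1.45 and 1.52 TPM in spheres, 2.77, 1.76 and 1.57 TPM in SCDM, 0.52, 0.57 and 0.59 TPM in SCDM/FGF, and 0.05, 0 and 0.13 TPM in FIBCL. The 4 groups did not overlap, but spheres and SCDM were separated by only 0.05 TPM. SCDM/FGF differed from SCDM by −0.88 (SE 0.14, adjusted p = 0.000337) and from spheres by −0.51 (adjusted p = 0.00995). FIBCL differed from SCDM by −1.42 (adjusted p = 2.56e-06). The difference of SCDM from spheres, 0.37 (adjusted p = 0.0452), was 0.20 (adjusted p = 0.167) without SCDM replicate 1 and was lost in 18 of its 22 alternatives.

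Myh11 encodes the smooth muscle myosin heavy chain, the most restricted marker of differentiated smooth muscle (chromosome 16, 14194535 to 14291372, minus strand). Its values were 0.09, 0.01 and 0.06 TPM in spheres, 0.07, 0.06 and 0.06 TPM in SCDM, and 0.10, 0.04 and 0.06 TPM in SCDM/FGF. In FIBCL they were 2.01, 1.96 and 2.17 TPM. The 9 libraries outside FIBCL overlapped at or below 0.1 TPM, and FIBCL stood wholly above them. Myh11 was tested only because its FIBCL libraries passed the filter, so its calls in FIBCL partly follow from the filter. The difference of FIBCL was 1.74 from SCDM (SE 0.093, adjusted p = 1.2e-08), 1.74 from SCDM/FGF (adjusted p = 1.32e-08) and 1.76 from spheres (adjusted p = 1.18e-08). Even there, only 24.5% of the tested genes had a lower mean in FIBCL. Myh11 was thus at or below 0.07 TPM in the SCDM libraries in which Acta2, Tagln and Myl9 reached 68.2 to 202 TPM.

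Myl9 encodes the regulatory light chain through which smooth muscle myosin is activated (chromosome 2, 156775420 to 156781658, plus strand). It had 1.76, 1.04 and 0.78 TPM in spheres, 123.3, 104 and 88.7 TPM in SCDM, 15.6, 19.2 and 13.5 TPM in SCDM/FGF and 1.20, 0.87 and 1.02 TPM in FIBCL. The order was that of Acta2 for the first pair of groups, while spheres and FIBCL overlapped. SCDM exceeded spheres by 5.64 (SE 0.174, adjusted p = 7.58e-10), rank 7 of all genes. SCDM/FGF and FIBCL differed from SCDM by −2.55 and −5.45 (adjusted p = 3.64e-07 and 1.6e-10). SCDM/FGF stayed 3.09 above spheres (adjusted p = 7.57e-08). FIBCL and spheres differed by 0.20 (95% interval −0.19 to 0.58, adjusted p = 0.334).

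Des encodes desmin, the intermediate filament of muscle (chromosome 1, 75360329 to 75368579, plus strand). It was listed at 0.85, 0.45 and 0.39 TPM in spheres, 0.30, 0.20 and 0.40 TPM in SCDM, 0.20, 0.17 and 0.17 TPM in SCDM/FGF and 0.07, 0.07 and 0.13 TPM in FIBCL. Spheres and SCDM overlapped, and by deposited TPM the FIBCL libraries were below all others. It was not tested in the main fit for its low level.

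Pdgfrb lies on chromosome 18 (61045150 to 61085061, plus strand). Its values were 146, 133 and 146 TPM in spheres, 136, 155 and 141 TPM in SCDM, 85.1, 72.3 and 65.6 TPM in SCDM/FGF and 2.95, 2.52 and 2.44 TPM in FIBCL. Spheres and SCDM overlapped, SCDM/FGF lay below them, and FIBCL lay far below all. SCDM differed from spheres by 0.16 (95% interval −0.01 to 0.33, adjusted p = 0.0991). SCDM/FGF differed from SCDM by −0.87 (SE 0.077, adjusted p = 3.43e-06), and FIBCL by −5.00 (SE 0.077, adjusted p = 6.1e-13). FIBCL also differed from spheres, by −4.83 (adjusted p = 8.95e-13). Pdgfrb was thus not called between spheres and SCDM, where Acta2, Myl9 and Tagln differed by 5.36, 5.64 and 6.54.

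**Figure D2:**
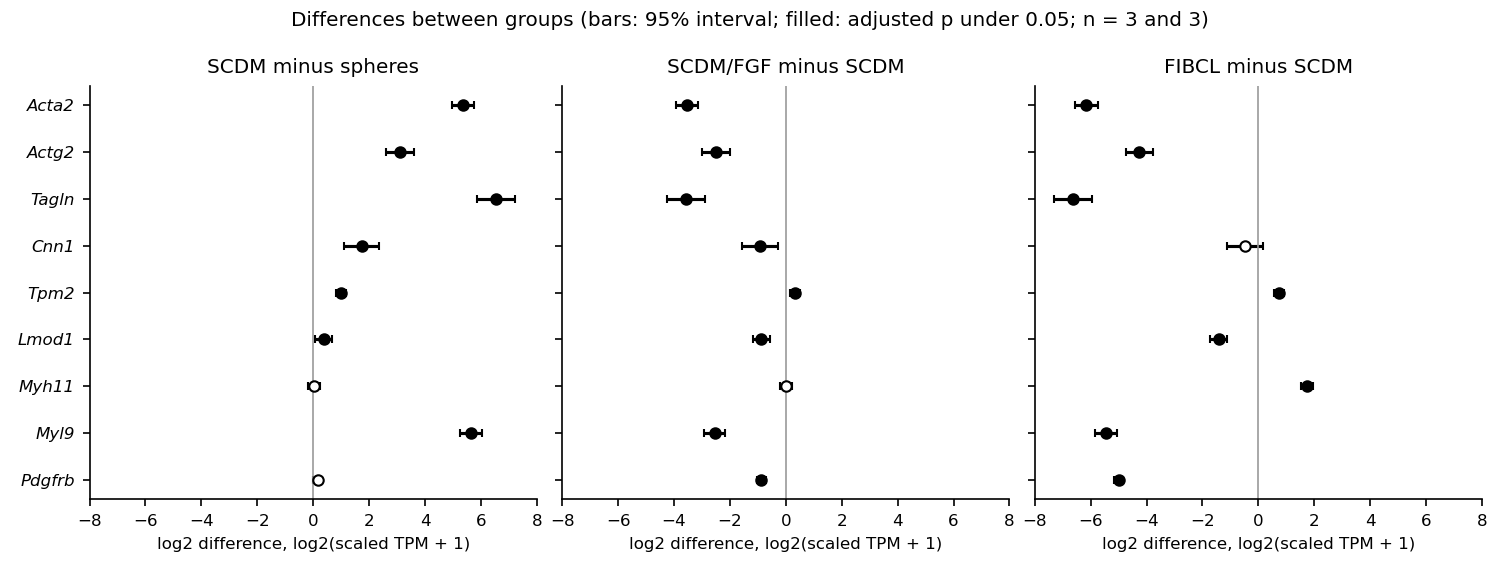
Differences on the log2(scaled TPM + 1) scale of the 9 tested genes in 3 comparisons, with 95% intervals, n = 3 libraries per group and filled symbols for adjusted p under 0.05 (limma). Tagln, Myl9 and Acta2 have the largest differences in each panel, between 2.55 and 6.63 in size, and Tpm2 and Myh11 lie above 0 in FIBCL minus SCDM.

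Counted over the 9 tested genes, 7 were higher and 0 lower in SCDM than in spheres, where 50.3% of all tested genes were called, 24.5% higher and 25.8% lower. With a further limit of 1.5 on the log2 scale 5 of the 9 were higher, against 3.76% of all genes. SCDM/FGF against SCDM gave 1 higher and 7 lower, against 43.1% of all genes called, 21.8% higher and 21.3% lower, and 4 of the 9 fell by more than 1.5, against 1.97%. FIBCL against SCDM gave 2 higher and 6 lower, against 71.7% called, 32.7% higher and 39% lower in all genes. Of these, 1 was higher and 5 were lower beyond 1.5, against 7.89% and 9.98%. The 1 that was higher is Myh11, which passed the filter only through its 3 FIBCL libraries. The median difference of the 9 genes was 1.74, −0.92 and −4.26 in these comparisons, and −0.07 over all genes in the last.

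The comparisons of FIBCL with the other groups use the same 3 FIBCL libraries and are given side by side. Myh11, whose calls in FIBCL partly follow from the filter, is among the higher genes in each. Against SCDM/FGF, FIBCL had 2 genes higher, 6 lower and Cnn1 not called, where 70.7% of all genes were called, 32.5% higher and 38.2% lower. Against spheres it had 3 higher (Tpm2, Myh11 and Cnn1), 4 lower (Pdgfrb, Actg2, Lmod1 and Acta2) and 2 not called, where 71.6% were called, 32.9% higher and 38.7% lower. SCDM/FGF against spheres had 6 higher and 2 lower (Pdgfrb, −0.70, and Lmod1, −0.51), where 50.4% were called, 25% higher and 25.4% lower. In that comparison Tagln, Myl9 and Acta2 were still 2.98, 3.09 and 1.82 higher, so that their levels in SCDM/FGF were between those of spheres and SCDM.

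In SCDM, replicate 1 was the highest of its group for 8 of the 10 genes and replicate 3 the lowest for 7. In spheres, replicate 1 was likewise the highest for 8 and replicate 3 the lowest for 5. In SCDM/FGF, replicate 2 was the highest for 6, with 25.0 TPM of Tagln against 8.64 and 10.4 TPM. The spread was thus wide for Tagln in SCDM/FGF, 14.8 ± 9.11 scaled TPM, and narrow for Tpm2 in FIBCL, 107 ± 2.46.

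The share of each protein family that the contractile form made up compares genes within a library and does not depend on rescaling. Acta2 and Actg2 were 0.117 ± 0.0399% of the summed TPM of the 6 actins in spheres, 2.97 ± 0.466% in SCDM, 0.263 ± 0.0656% with bFGF added (SCDM/FGF) and 0.00835 ± 0.0055% in FIBCL. The cytoplasmic actins Actb and Actg1 made up nearly all of the rest, at 1099 to 1865 TPM each in spheres, SCDM and SCDM/FGF and 985 to 1394 TPM in FIBCL. Even at its peak the smooth muscle pair was therefore a small part of the actin message.

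Tagln was 0.777 ± 0.271% of the transgelins in spheres and 64.5 ± 3.87% in SCDM, 13.2 ± 6.95% with added bFGF and 0.475 ± 0.144% in FIBCL. Tagln was thus the major transgelin in SCDM alone of the 4 groups. Tagln2 lay between 92.4 and 129 TPM in all libraries. Myl9 was 0.277 ± 0.115%, 15.2 ± 2.04%, 3.40 ± 0.481% and 0.355 ± 0.0651% of the 3 regulatory light chains in spheres, SCDM, SCDM/FGF and FIBCL, the others being the non-muscle Myl12a and Myl12b.

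Among 4 class II heavy chains, Myh11 was at most 0.0625% in any library outside FIBCL and 1.71 ± 0.203% in FIBCL. The non-muscle heavy chain Myh9 was 1.20 higher in SCDM than in spheres (adjusted p = 5.9e-08), at 177 ± 15.2 against 76.5 ± 3.73 scaled TPM. Tpm2 was 4.15 ± 0.269% of the tropomyosins in spheres, 4.68 ± 0.416% in SCDM, 6.16 ± 0.446% with added bFGF and 10.7 ± 0.249% in FIBCL. Tpm1, which is also used in smooth muscle, rose by 1.33 from spheres to SCDM (adjusted p = 1.1e-08) and differed by −1.07 in FIBCL against SCDM (adjusted p = 1.5e-08), the opposite direction to Tpm2.

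Cnn1 was under 1% of the calponins in every library, from 0.0107 to 0.61%. Cnn2, a non-muscle calponin, was 2.04 higher in SCDM than in spheres (adjusted p = 1.2e-08). Lmod1 was 3.06 ± 0.943% of leiomodins and tropomodulins in SCDM and 0.0808 ± 0.0899% in FIBCL. Of the 2 PDGF receptors, Pdgfrb was 69.1 ± 0.415% in SCDM, 33.5 ± 2.40% in SCDM/FGF, 48.6 ± 1.44% in spheres and 24.8 ± 1.63% in FIBCL.

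**Figure D3:**
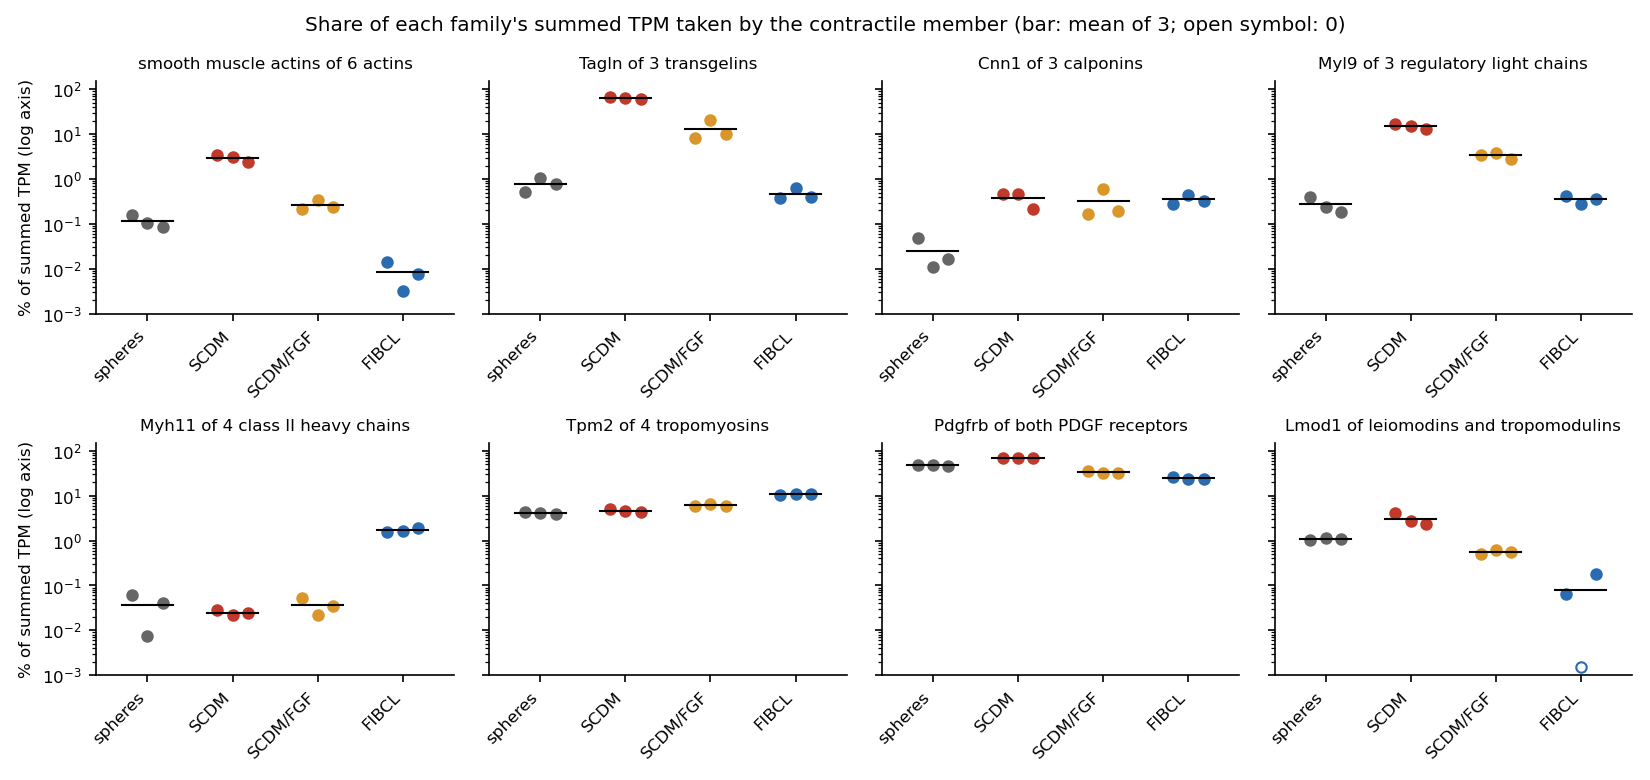
Share (%, log axis) of the summed TPM of each protein family taken by its contractile member, with 3 libraries per group and a bar at the mean. Tagln reaches 60.6-68.3% of the transgelins in SCDM, while the smooth muscle actins stay at or below 3.37% of the actins in all 12 libraries.

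The transcription factors and signals of the programme were taken from a list of 17 regulators, of which 16 were tested. Myocd, which encodes myocardin, was at most 0.09 TPM in any library and was not tested. Srf stood at 19.8 to 21.4 TPM in spheres, 24.9 to 26.5 TPM in SCDM, 23.0 to 32.1 TPM in SCDM/FGF and 13.0 to 18.8 TPM in FIBCL. Its difference was 0.44 between SCDM and spheres (adjusted p = 0.018) and 0.11 between SCDM/FGF and SCDM (adjusted p = 0.54). On scaled TPM, FIBCL was not below spheres (0.11, adjusted p = 0.485) and differed from SCDM by −0.33 (adjusted p = 0.0453). Acta2 and Tagln differed by −3.53 and −3.56 between SCDM/FGF and SCDM, where Srf was not called. Any part of Srf in those differences was not tested.

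Mrtfa, which encodes MRTF-A, was 0.40 higher in SCDM than in spheres (adjusted p = 0.0019) and 0.57 higher in FIBCL than in SCDM (adjusted p = 6.5e-05). For Mrtfb the differences were 0.08 (adjusted p = 0.53) and 0.37 (adjusted p = 0.0037). The coactivators Yap1 and Wwtr1, which work with TEAD factors, differed by −0.78 and −1.08 in FIBCL against SCDM (adjusted p = 8.6e-08 and 2.8e-09). They also differed by −0.37 and −0.33 in SCDM against spheres (adjusted p = 0.000124 and 0.000172). In SCDM/FGF against SCDM they differed by 0.08 and 0.21 (adjusted p = 0.264 and 0.00449). Any part of these factors in the differences of Acta2 was not tested. Klf4, a repressor of smooth muscle genes, was highest in spheres at 28.4 ± 1.72 scaled TPM, against 16.2 ± 0.829 in SCDM, 9.41 ± 0.201 with added bFGF and 7.01 ± 0.464 in FIBCL.

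Of the TGF-β ligands, which induce the myofibroblast programme, Tgfb3 differed by −1.97 and Tgfb2 by −1.47 in SCDM/FGF against SCDM (adjusted p = 1.59e-08 and 1.9e-07), and Tgfb1 by 0.18 (adjusted p = 0.0108). In SCDM against spheres Tgfb2 differed by −0.98, Tgfb1 by −0.35 and Tgfb3 by 0.54 (adjusted p = 4.8e-06, 9.81e-05 and 0.000462). In FIBCL, Tgfb3 differed from SCDM by −2.08 and Tgfb1 by 0.88 (adjusted p = 2.3e-09 and 1.66e-08), and Tgfb2 differed by −0.02 (adjusted p = 0.86). The largest increase in the list was that of Gata6, 1.62 higher in FIBCL than in SCDM (adjusted p = 2e-06). Over the 16 regulators, 4 were higher and 11 lower in FIBCL than in SCDM, where 32.7% of all genes were higher and 39% lower. In SCDM/FGF 6 were higher and 4 lower than in SCDM, against 21.8% and 21.3% of all genes, and in SCDM 7 were higher and 7 lower than in spheres, against 24.5% and 25.8%.

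Other genes of the contractile apparatus, 33 listed and 27 tested, are given by their counts. SCDM had 16 higher and 6 lower than spheres (24.5% and 25.8% of all genes), with a median difference of 0.56 against −0.01 over all genes. FIBCL had 6 higher and 17 lower than SCDM, against 32.7% and 39% of all genes (median −0.66, and −0.07 over all genes). SCDM/FGF had 7 higher and 14 lower than SCDM, against 21.8% and 21.3% (median −0.19, and −0.02 over all genes). The lowest in FIBCL against SCDM were Nexn, an actin-binding protein of the cell's contractile bundles, at −2.75 (adjusted p = 1.05e-06) and the LIM protein gene Fhl2 at −2.74 (adjusted p = 2.48e-10). The highest were Csrp2, a LIM protein gene of smooth muscle, at 1.28 (adjusted p = 0.000134) and Pdlim7 at 0.96 (adjusted p = 1.18e-07).

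With bFGF added to SCDM, Itga8, the integrin α8 subunit of smooth muscle and mesenchyme, rose by 4.04 (SE 0.141, adjusted p = 1.66e-09). Its values were 79.7 to 94.3 TPM in spheres, 2.69 to 4.72 TPM in SCDM, 62.0 to 76.7 TPM in SCDM/FGF and 3.40 to 4.15 TPM in FIBCL. Spheres and SCDM/FGF were thus both high in Itga8 where Acta2 was low, but FIBCL was low in both. Cacna1c, a calcium channel gene of the same list, rose by 0.54 (adjusted p = 0.00506). Csrp2 and the angiotensin receptor gene Agtr1a fell by 2.76 and 2.45 (adjusted p = 6.3e-07 and 9.09e-07).

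Around Pdgfrb, the sister receptor Pdgfra differed by −1.06 in SCDM against spheres (adjusted p = 1.3e-07) and was 1.26 higher in SCDM/FGF than in SCDM (adjusted p = 3.34e-08). Pdgfra and Pdgfrb thus moved in opposite directions when bFGF was added, and both were lower in FIBCL than in SCDM. Pdgfb, the ligand of Pdgfrb, was 1.94 higher in SCDM than in spheres (adjusted p = 8.4e-06), and it differed by −1.40 in SCDM/FGF (adjusted p = 0.00014) and −2.29 in FIBCL from SCDM (adjusted p = 7.91e-07). All 5 genes of this list, 4 ligands and Pdgfra, were lower in FIBCL than in SCDM, where 39% of all genes were lower.

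Markers of cell types that share these genes were counted next. Of 15 myofibroblast matrix genes, 11 were higher and 2 lower in SCDM than in spheres (24.5% and 25.8% of all genes), with a median of 1.96. In SCDM/FGF 4 were higher and 9 lower than in SCDM (21.8% and 21.3% of all genes). In FIBCL 1 was higher and 13 were lower than in SCDM (32.7% and 39% of all genes), with a median of −4.74. Postn, which encodes periostin, stood at 268 to 294 TPM in spheres, 1733 to 1895 TPM in SCDM, 161 to 227 TPM in SCDM/FGF and 0.43 to 0.58 TPM in FIBCL. Its summed list was 12200 to 13300 scaled TPM in SCDM, 8250 to 8710 in SCDM/FGF, 3940 to 4050 in spheres and 1790 to 1880 in FIBCL.

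Pericyte markers, 11 tested of 12, were 3 higher and 3 lower in SCDM than in spheres, with a median of 0.02, where 24.5% and 25.8% of all genes were called. In FIBCL 2 were higher and 9 lower than in SCDM, against 32.7% and 39% of all genes. In SCDM/FGF 3 were higher, 5 lower and 3 not called against SCDM, where 21.8% of all genes were higher and 21.3% lower. Cspg4, the NG2 proteoglycan of pericytes, fell there by 2.12 (adjusted p = 5.66e-07) and Heyl, a Notch target gene, by 2.00 (adjusted p = 2.93e-08). Rgs5, a pericyte marker, was highest in SCDM/FGF, at 11.7 ± 1.31 scaled TPM against 1.16 ± 0.106 in SCDM. Notch3, a receptor of mural cells, was highest in FIBCL, at 15.6 ± 1.11 against 6.68 ± 0.387 in SCDM (difference 1.11, adjusted p = 8.5e-06). The 10 striated muscle markers summed to at most 6.08 scaled TPM in any library.

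Levels of other cell types differed between the same groups. The 4 otic mesenchyme markers summed to 241-258 scaled TPM in SCDM, 196-208 in SCDM/FGF, 293-311 in spheres and 49.6-52.0 in FIBCL. These 4 were all lower in FIBCL than in SCDM, where 39% of all genes were lower. The 8 glial markers summed to 188-216 in SCDM, 183-206 in SCDM/FGF, 511-538 in spheres and 16.0-21.7 in FIBCL. The 6 macrophage markers summed to 921-999 in SCDM, 932-1040 in SCDM/FGF, 73.7-89.6 in spheres and 158-183 in FIBCL. The lysosomal gene Cd68 made up 165 of the mean of 171 in FIBCL. Of the 6 markers, 1 was higher and 5 were lower in FIBCL than in spheres (32.9% and 38.7% of all genes). C1qa was among the lower, at 0.385 ± 0.183 against 22.7 ± 3.13. All 6 macrophage markers were lower in FIBCL than in SCDM (39% of all genes).

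Of the 7 neuronal markers 6 were tested, and 5 were higher and 1 lower in FIBCL than in each other group (32.5-32.9% and 38.2-39% of all genes). The lower one was Gap43, a growth cone gene that is also found in glia, with means of 192 in SCDM, 87.4 in SCDM/FGF, 157 in spheres and 73.2 in FIBCL. It carried most of the list's summed means of 212, 107 and 169 in the first 3 of these groups, against 475 in FIBCL. The 5 endothelial markers summed to 8.44-8.93 in SCDM, 36.6-40.5 in SCDM/FGF, 11.7-14.6 in spheres and 13.1-13.7 in FIBCL. Most of the sum in SCDM/FGF was Cdh5, the cadherin of endothelial junctions, at 36.6 ± 2.21 against 1.32 ± 0.261 in SCDM (difference 4.02, adjusted p = 2.06e-10).

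Between SCDM and SCDM/FGF the sums did not overlap for otic mesenchyme (241-258 against 196-208 scaled TPM) or myofibroblast matrix markers (12200-13300 against 8250-8710). Nor did they for pericyte (167-174 against 143-155), neuronal (202-220 against 94.2-119) and endothelial markers (8.44-8.93 against 36.6-40.5). They overlapped for glial and macrophage markers, whereas Acta2 did not overlap. Single markers were called there too. In SCDM/FGF, 3 of 8 glial markers were higher and 2 lower than in SCDM. Of 6 macrophage markers, 1 was higher and 3 were lower. Over all genes, 21.8% were higher and 21.3% lower in this comparison. The part of any cell type in the differences was not tested.

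**Figure D4:**
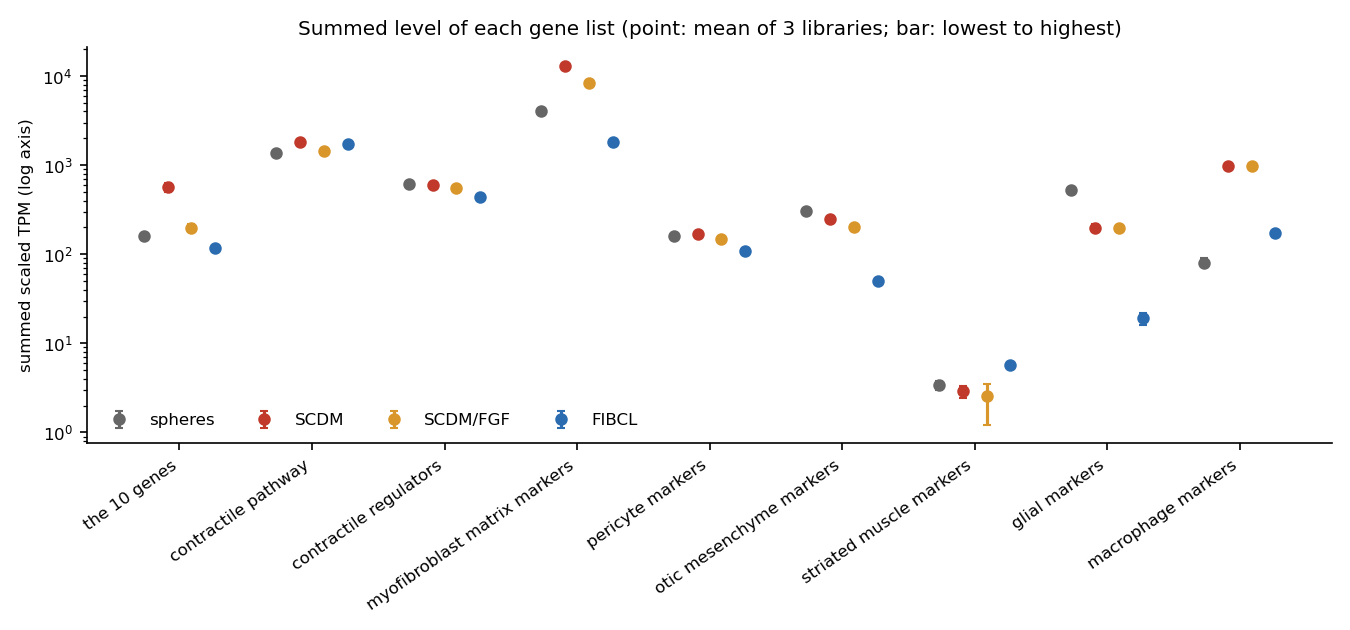
Summed scaled TPM (log axis) of 9 gene lists in each group, with points at the mean of 3 libraries and bars from the lowest to the highest. The 10 genes and the myofibroblast matrix list are highest in SCDM, at 502-636 and 12200-13300 scaled TPM. The summed glial and macrophage lists overlap between SCDM and SCDM/FGF, and the myofibroblast matrix, pericyte and otic mesenchyme lists do not.

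The SCDM libraries, which were highest in smooth muscle actin and transgelin, had little of some other genes of smooth muscle. There, Myh11 was at or below 0.07 TPM, Des at or below 0.40 TPM and Myocd at or below 0.09 TPM. Of the 9 tested members, 7 were nevertheless higher in SCDM than in spheres and 0 lower (24.5% and 25.8% of all genes). Among them were Actg2, at 20.0 against 1.45 scaled TPM, and Cnn1, at 2.94 against 0.142. The 10 genes are for that reason described singly and not as a cell type.

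The genes whose pattern over the 12 libraries was nearest to that of Acta2 were found by the root mean square difference of centred log2(scaled TPM + 1) among 11125 genes. They were Gm18787 (0.43), Aspn (0.46), Col12a1 (0.51), Npr3 (0.60) and Fmod (0.62), against 2.38 for the spread of Acta2 itself. Col12a1, a fibril-associated collagen, had means of 8.54, 443, 57.0 and 2.98 scaled TPM in spheres, SCDM, SCDM/FGF and FIBCL. Among the members, Myl9 (0.52) and Tagln (0.57) were about as near, Actg2 was at 0.88, and Myh11 was the farthest at 2.88.

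For Myh11 the genes nearest in pattern included Rmc1 (0.07), Cltc (0.11), Magi3 (0.12) and Gnptab (0.12), with a spread of 0.76 for Myh11 itself. These 4 were present in every group and had their highest means in FIBCL, as Cltc, the clathrin heavy chain, with 170 ± 6.03 scaled TPM in SCDM and 690.0 ± 29.3 in FIBCL. With 1 added before the logarithm, the step of Myh11 from 0.0598 to 2.56 scaled TPM counts as 1.74 only, and likeness with another pseudocount was not tested. The nearest to Pdgfrb were Srpx2 (0.24), C1qtnf5 (0.25), Fbn2 (0.26), Col6a2 (0.29) and Ccl9 (0.29), with a spread of 2.04 for Pdgfrb. Col6a2, a collagen VI chain, had means of 661, 486, 273 and 20.9 scaled TPM in the order of the groups above.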

How the data were processed

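The authors made polyA RNA-seq libraries. Their reads were cleaned in SeqPrep and Sickle, TopHat was the aligner, and RSEM gave the gene levels. The deposited table holds TPM with 2 decimals for 55487 genes in 12 libraries. The genome build is not given in the sources used here, and gene positions were taken from GENCODE M21 (GRCm38) by gene identifier. TPM keep no number of reads, so the depth is unknown and no counting interval was given. The columns of FIBCL carry the name FIBC, which the paper gives to the mixture without LIF, and they were assigned to FIBCL because no other group in the labels has such a name.

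For scaling, log2 ratios to the average library were averaged over 8434 genes at 5 TPM or more everywhere, after trimming 30% from either end. A gene needed 1 TPM in 3 or more libraries, and the 16016 that passed were tested as log2(scaled TPM + 1) in limma 3.58.1 (R 4.3.3), with a mean-variance trend, a model of the 4 groups, 6 comparisons and Benjamini-Hochberg adjustment in each. A count model had been planned and limma was used because the unit was TPM. Since nothing in the labels ties a library to separate animals, p-values measure only the spread between these libraries. The fit was tested on simulated data first. No sequence window of a member was shared with another gene.

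All 10 members are described. From the gene lists, every gene may be named, with the 2 highest and 2 lowest called differences in FIBCL and in SCDM/FGF against SCDM, and the 5 genes nearest in pattern were taken for Acta2, Myh11 and Pdgfrb. For Myh11, 1 of these is not reported here. The members and lists were chosen with earlier results of these data known. Alternatives changed the scaling, the pseudocount (0.1 or 0.5), the filter, the trend, the groups fitted, the limit on the difference and the replicate block, or left out 1 library.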

Additional observations from a re-analysis of the deposited data

Results flagged for a closer look

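Lmod1 moved in opposite directions from spheres in SCDM and in SCDM/FGF. All 3 SCDM libraries were above all 3 sphere libraries (difference 0.37, adjusted p = 0.0452), and all 3 SCDM/FGF libraries were below them (−0.51, adjusted p = 0.00995). The test of the difference itself, SCDM/FGF minus SCDM, gave −0.88 (limma, adjusted p = 0.000337), which is the same comparison as in the report. The higher level in SCDM was lost in 18 of its 22 alternatives.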

How the results depend on the processing

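Of 1206 alternative values for single members, 1139 kept their direction and their side of the threshold, 57 lost a call, 5 gained one and 5 changed sign. The sign changes were all of differences not called in the first place: Tagln in FIBCL minus spheres (0.046 without sphere replicate 2, −0.20 without replicate 1), Myl9 in FIBCL minus spheres (−0.09 on deposited TPM and −0.021 with equal summed TPM), Myh11 in SCDM minus spheres (−0.0048 without sphere replicate 2, 0.041 without replicate 1) and Myh11 in SCDM/FGF minus SCDM (−0.012 without SCDM/FGF replicate 1, 0.026 without replicate 2). With a mean of at least 5 TPM required, the members called were 4 in FIBCL minus spheres and 5 in SCDM/FGF minus spheres. Fewer members were then tested, and Actg2 lost its call in SCDM/FGF minus spheres (adjusted p = 0.0518). In the main fit 71.6% and 50.4% of all genes were called in these comparisons. With the limit of 1.5 the members called were 3 in each of these and 4 in SCDM/FGF minus SCDM. The shares of all genes were then 15.9%, 6.04% and 4.85%. Among the 3 in FIBCL minus spheres was Myh11, which passed the filter only through FIBCL.

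Leaving out 1 library gave 7 to 9 members called in FIBCL minus SCDM and in FIBCL minus SCDM/FGF, 6 to 7 in FIBCL minus spheres and in SCDM minus spheres, 6 to 8 in SCDM/FGF minus spheres and 7 to 8 in SCDM/FGF minus SCDM. Over all genes the calls were then 10527 to 11458, 10288 to 11245, 10438 to 11494, 7050 to 8140, 7096 to 7950 and 6092 to 6839 in that order. Without any FIBCL library Myh11 no longer passed the filter. The median of all genes in FIBCL minus SCDM was −0.07, and −0.40 on deposited TPM or −0.30 with equal summed TPM, so small differences of FIBCL rest on the scaling. Pdgfrb in SCDM minus spheres gained a call when only those groups were fitted (0.16, adjusted p = 0.0373) and without SCDM/FGF replicate 1 (adjusted p = 0.0412). Cnn1 in SCDM/FGF minus spheres (0.82, adjusted p = 0.0329) was lost in 5 alternatives besides the limit of 1.5, and was 0.49 without SCDM/FGF replicate 2. Without a filter, Des differed by −0.40 between FIBCL and spheres (adjusted p = 0.0049) and by −0.32 between SCDM/FGF and spheres (adjusted p = 0.0286). Des was not called between FIBCL and SCDM (adjusted p = 0.114) or between FIBCL and SCDM/FGF (adjusted p = 0.532).

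Same-numbered libraries did not deviate together: over 18 pairs the correlation of their deviations from the group means ran from −0.121 to 0.099, and a library was nearest to its own number in 15 of 36 cases. With the replicate block, 8, 8, 7, 6, 8 and 8 members were called, in the order of the comparisons FIBCL minus SCDM, FIBCL minus SCDM/FGF, FIBCL minus spheres, SCDM minus spheres, SCDM/FGF minus spheres and SCDM/FGF minus SCDM, and 11391, 11215, 11347, 7836, 7872 and 6692 of 16016 genes. Only Lmod1 in SCDM minus spheres was lost under the block (adjusted p = 0.0689). Depth is unknown, and genes near 0 TPM, Myh11, Des and Lmod1 among them, are the least certain.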
